A study of Mus musculus with 6 samples.

Results

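The mitochondrial mRNAs mt-Nd1, mt-Nd2, mt-Nd3, mt-Nd4l, mt-Nd4 and mt-Nd5 are the complex I messages read from the heavy-strand transcript. They were taken by name, on the forward strand, as 6 of the 37 genes of the mouse mitochondrial chromosome and 6 of its 13 protein-coding genes. Their values here are the depths of small RNA reads at each base, so they describe fragments of these messages and not the intact messages.

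Complex I is the first enzyme of the respiratory chain, and the core subunits of its membrane arm are encoded in mitochondrial DNA. The heavy-strand transcript is long and holds mRNAs, rRNAs and tRNAs in a row, and excision of the tRNAs frees most mRNA ends. RNase P, whose nuclease subunit is encoded by the nuclear gene Mrpp3, cuts at the 5′ side of each tRNA, which is the 3′ end of the RNA before it, and ELAC2 cuts at the 3′ side of each tRNA, which is the 5′ end of the RNA after it.

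The libraries come from the islets of Langerhans of the pancreas of mice that carried Mrpp3WT (called wild type below, 3 libraries) or Mrpp3N434S (called mutant below, 3 libraries). All mice of both groups had a high-fat diet for 14 weeks, so diet is shared by the groups and is not compared here. Of each genotype 3 mice were used, per the design text, and the labels give neither age, sex nor strain nor how the allele was made. The series asks whether small RNA coverage of the mitochondrial chromosome differs between the genotypes.

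The deposited counts cover the mitochondrial chromosome alone, so neither the genotype at the nuclear gene Mrpp3 nor islet markers could be checked in them. Added up over all bases, depth ran from 3156761 to 4337052 in the wild-type libraries and from 5461367 to 10923311 in the mutant ones. The genotypes thus did not overlap in total depth, and any unscaled difference between them includes this one. The highest total was that of mutant replicate 1, which stands apart, as the other 5 libraries reached at most 5928569. In every list of 3 values below, the order is replicate 1, 2 and 3. Scaled depth is the count at a base, or its mean over a stretch, divided by a factor for each library (0.657 to 1.60). The factor evens out a trimmed mean, over the mitochondrial genes, of the log ratios between libraries, and does not make total depth equal. Scaling to library totals instead moved the median log2 difference of all genes by -0.40. Scaled depth is therefore a level relative to other mitochondrial RNA, and fewer cells of a type and less of an RNA per cell cannot be told apart.

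The sequences at the mRNA starts are shown because the reads piled up there. Each is the first 60 bases of the message on the plus strand of GRCm38, as the reference bases of the deposited files give them, with the first codon in capitals. They lie at chrM:2751-2810 (mt-Nd1), chrM:3914-3973 (mt-Nd2), chrM:9459-9518 (mt-Nd3), chrM:9877-9936 (mt-Nd4l) and chrM:11742-11801 (mt-Nd5), all in coding sequence, and all begin directly after a tRNA or 1 base after it.
mt-Nd1 5′ end: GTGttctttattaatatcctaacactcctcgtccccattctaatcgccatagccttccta
mt-Nd2 5′ end: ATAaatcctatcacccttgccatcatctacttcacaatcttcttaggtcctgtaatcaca
mt-Nd3 5′ end: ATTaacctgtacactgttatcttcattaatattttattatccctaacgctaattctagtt
mt-Nd4l 5′ end: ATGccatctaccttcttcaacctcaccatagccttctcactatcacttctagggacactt
mt-Nd5 5′ end: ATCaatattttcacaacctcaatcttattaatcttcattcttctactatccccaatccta

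The mt-Nd4 message has no tRNA before it. It overlaps the last 7 bases of mt-Nd4l, and its 2 peaks of depth lay inside the coding sequence, at chrM:10212-10281 near the start and at chrM:11170-11265 in the 3′ part.
mt-Nd4 peak near the start: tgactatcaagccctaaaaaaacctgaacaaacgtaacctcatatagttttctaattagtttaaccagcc
mt-Nd4 peak in the 3′ part: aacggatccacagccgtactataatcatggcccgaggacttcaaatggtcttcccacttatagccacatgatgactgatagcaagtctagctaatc

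The places where an mRNA meets the next tRNA are shown because RNase P cuts there. Each line holds 30 bases before the tRNA in lower case and the first 10 bases of the annotated tRNA in capitals, on the plus strand, at chrM:3676-3715, chrM:4920-4959, chrM:9778-9817 and chrM:11516-11555.
mt-Nd1 3′ end and mt-Ti: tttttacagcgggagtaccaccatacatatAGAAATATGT
mt-Nd2 3′ end and mt-Tw: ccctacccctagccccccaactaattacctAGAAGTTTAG
mt-Nd3 3′ end and mt-Tr: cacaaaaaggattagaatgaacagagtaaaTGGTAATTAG
mt-Nd4 3′ end and mt-Th: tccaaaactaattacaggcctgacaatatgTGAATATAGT

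The reads over these messages were not even: the first 100 nt were deeper than the rest in every library, 1.40 to 2.76 times in mt-Nd4 and 1.77 to 12.5 times in the other 5 messages. Local peaks were taken on the mean of the 6 libraries, as a highest base with at least 3 times the median depth of the gene and a mean depth of at least 50, widened while depth stayed at or above 50% of that base. The 6 messages had 9 peaks, 70 to 115 nt wide and 3.50 to 12.2 times the gene median. In mt-Nd2, mt-Nd3, mt-Nd4l and mt-Nd5 the highest peak reached the first base of the message, and in mt-Nd1 it ran from base 10 to base 124. Peaks were sought inside each message only, so none could begin before its first base. At mt-Nd2 and mt-Nd3 the tRNA base before was deeper in every library, as given below, so these peaks do not show where fragments began. Among the 7 other protein-coding genes, 4 had a peak and 1, the light-strand complex I message mt-Nd6, had one that reached its first base; whether the 6 messages differ from the others in this was not tested.

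The small subunit mRNAs mt-Nd3 and mt-Nd4l, whose proteins are short membrane subunits of complex I, had the deepest blocks. In mt-Nd3 the mean depth over bases 1 to 90 was 143, 144 and 99.1 in wild-type against 158, 131 and 171 in mutant libraries, 12.2 times the gene median at the summit. In mt-Nd4l bases 1 to 107 had 153, 107 and 117 in wild-type against 198, 136 and 151 in mutant libraries. The genotypes overlapped in both after scaling.

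In mt-Nd2, which encodes one of the antiporter-like proton-pumping subunits, bases 1 to 83 had a mean depth of 101, 63.1 and 64.8 in wild-type against 97.5, 92.8 and 112 in mutant libraries. In mt-Nd5, which encodes another of them, bases 1 to 97 had 66.9, 40.9 and 44.2 in wild-type against 79.2, 66.3 and 95.1 in mutant libraries. In mt-Nd1, which encodes the subunit at the foot of the membrane arm next to the quinone site, bases 10 to 124 had 41.0, 36.7 and 36.3 in wild-type against 67.3, 44.3 and 59.4 in mutant libraries. The blocks of these 3 messages also overlapped between genotypes after scaling.

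The far edge of the block fell within 2 bases in all 6 libraries in mt-Nd2 and varied most in mt-Nd3. Depth dropped below 50% of the highest value of the block of mt-Nd2 at base 82 to 84 in the 6 libraries, of mt-Nd4l at base 102 to 111, of mt-Nd5 at base 87 to 104, of mt-Nd3 at base 86 to 123 and of mt-Nd1 at base 116 to 128. Within bases 101 to 200 the lowest depth was 0 to 7 in mt-Nd5, 1 to 5 in mt-Nd2 and 3 to 8 in mt-Nd1. It was 4, 3 and 7 in wild-type against 26, 16 and 10 in mutant libraries in mt-Nd4l. In mt-Nd3 it was 2, 3 and 7 against 23, 11 and 11, and in mt-Nd4 2, 4 and 4 against 14, 3 and 10, all unscaled. The single highest base of the whole message lay within the first 100 in 6 of 6 libraries for mt-Nd1, mt-Nd2, mt-Nd3 and mt-Nd4l, in 5 for mt-Nd5 (in mutant replicate 1 it was base 272) and in 3 for mt-Nd4. The near edge differed between messages. Base 1 already held 93.1% to 98.2% of the block's highest depth in mt-Nd3, 83.1% to 94.5% in mt-Nd4l, 82.0% to 97.1% in mt-Nd2 and 79.5% to 94.3% in mt-Nd5. It held 29.5% to 53.2% in mt-Nd1, where depth climbed to a highest base between bases 62 and 68.

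**Figure D1:**
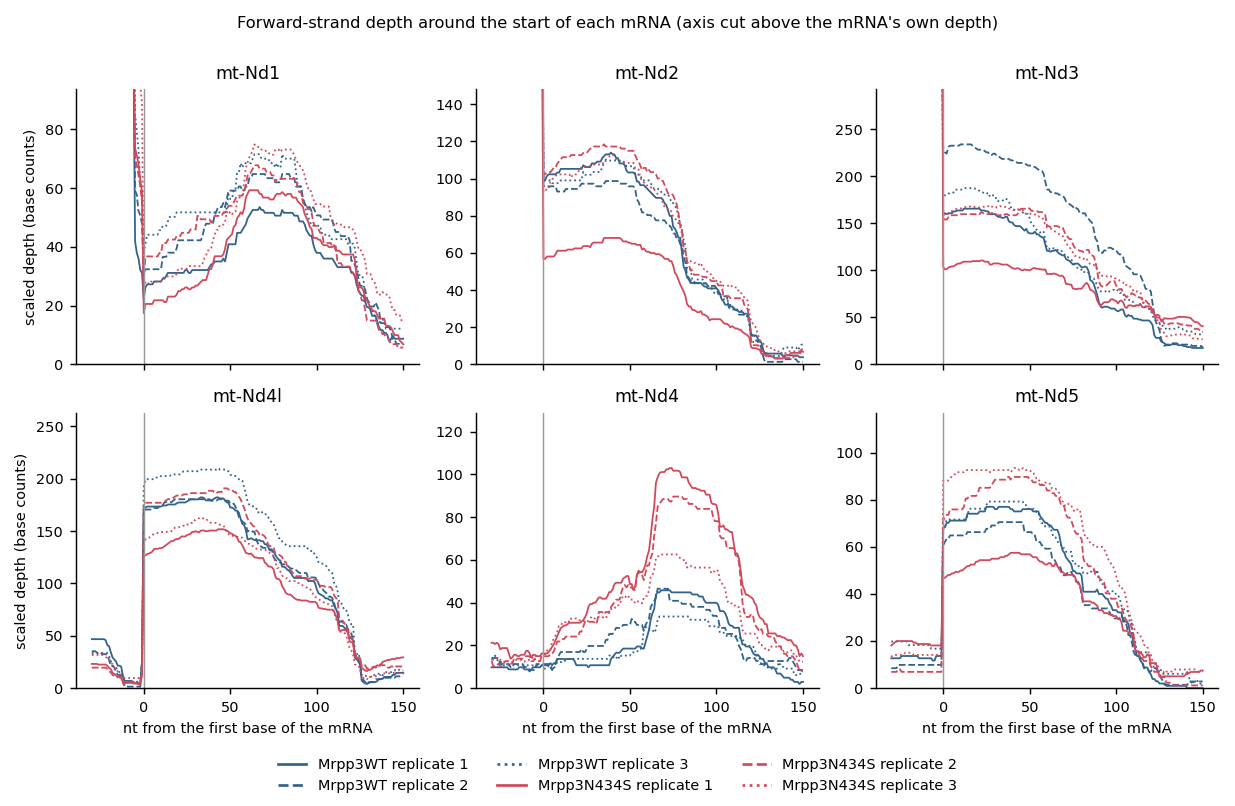
Scaled depth at each base (y axis, base counts divided by the factor of the library) from 30 nt before to 150 nt after the first base of each mRNA (x axis, nt, 0 at the first base), 1 line per library. In mt-Nd2, mt-Nd3, mt-Nd4l and mt-Nd5 all 6 lines stand near their highest level from the first base on and fall away at about 100 nt, in mt-Nd1 they climb to about base 65, and in mt-Nd4 there is no step at the first base; the y axis ends above the mRNA's own depth, so that the deeper tRNA before mt-Nd1, mt-Nd2 and mt-Nd3 runs out of the panel.

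At 2 starts most reads over the first base of the message did not reach back into the tRNA. On the last base of the arginine tRNA mt-Tr the depth was 5, 1 and 3 in wild-type against 6, 4 and 9 in mutant libraries, on the single base between it and mt-Nd4l 24, 20 and 17 against 19, 11 and 17, and on the first base of mt-Nd4l 176, 121 and 126 against 202, 153 and 159. Unless a read was aligned with a gap, at least 94.3% to 99.2% of the reads over the first base of mt-Nd4l did not cover the last base of the tRNA, in every library. At mt-Nd5 the last base of the leucine tRNA mt-Tl2 had 14, 7 and 11 in wild-type against 29, 6 and 15 in mutant libraries, and the first base of the message 70, 43 and 44 against 75, 62 and 100. By the same reckoning at least 61.3% (mutant replicate 1) to 90.3% (mutant replicate 2) of the reads at the start of mt-Nd5 did not cover the tRNA.

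The tRNAs before mt-Nd1, mt-Nd2 and mt-Nd3 were themselves deep, so the step there went down. The last base of the glycine tRNA mt-Tg had 761, 408 and 310 in wild-type against 1054, 452 and 626 in mutant libraries, and the first base of mt-Nd3 165, 163 and 119 against 166, 135 and 181. From the methionine tRNA mt-Tm (286, 152 and 197 against 327, 232 and 299) to mt-Nd2 the depth went to 101, 68 and 65 against 91, 89 and 105. From the leucine tRNA mt-Tl1 (32, 34 and 38 against 94, 48 and 101) it went to 23, 22 and 25 against 28, 25 and 29 at mt-Nd1. At these 3 starts base counts do not show how many reads ran on from the tRNA. At mt-Nd4, with no tRNA before it, the first base had 11, 8 and 6 in wild-type against 26, 13 and 18 in mutant libraries, and the last base of mt-Nd4l, 6 nt further on, 12, 7 and 6 against 33, 15 and 26.

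The ends of the messages before a tRNA, where RNase P cuts, held little depth in either genotype. On the last base of mt-Nd4 the depth was 2, 3 and 5 in wild-type against 5, 1 and 4 in mutant libraries. On the next base, 1 nt before the annotated start of the histidine tRNA mt-Th, it was 581, 478 and 415 against 860, 475 and 480. The depth on the last base of mt-Nd4 was thus 0.209% to 1.20% of that on the first annotated base of mt-Th.

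On the last base of mt-Nd1 before the isoleucine tRNA mt-Ti the depth was 0, 1 and 0 in wild-type against 2, 0 and 0 in mutant libraries, where a count of 0 allows up to 3. On the first base of mt-Ti it was 45, 27 and 37 against 41, 48 and 50, so the message had 0% to 4.88% of the depth of the tRNA, and the libraries at 0 allow 6% to 8.11%. On the last base of mt-Nd2 before the tryptophan tRNA mt-Tw the depth was 3, 0 and 2 in wild-type against 0, 2 and 2 in mutant libraries, and on the tRNA's first base 14, 7 and 8 against 10, 8 and 11. The message had 0% to 25% of the depth of the tRNA, the 2 libraries at 0 allow 30% and 42.9%, and no difference between genotypes was detectable at this depth. At the end of mt-Nd3 before mt-Tr the depths were 4, 0 and 0 in wild-type against 4, 4 and 5 in mutant libraries on the message and 20, 10 and 3 against 9, 7 and 8 on the tRNA. The depth of the message was 20%, 0% and 0% of that of the tRNA in wild-type against 44.4%, 57.1% and 62.5% in mutant libraries, without overlap. At these depths the wild-type libraries at 0 allow 30% and 100%, so the counts are too small to compare the genotypes, and no test was made. The last base of mt-Nd5, which no tRNA of the same strand follows, had 4, 3 and 0 in wild-type against 7, 2 and 3 in mutant libraries.

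**Figure D2:**
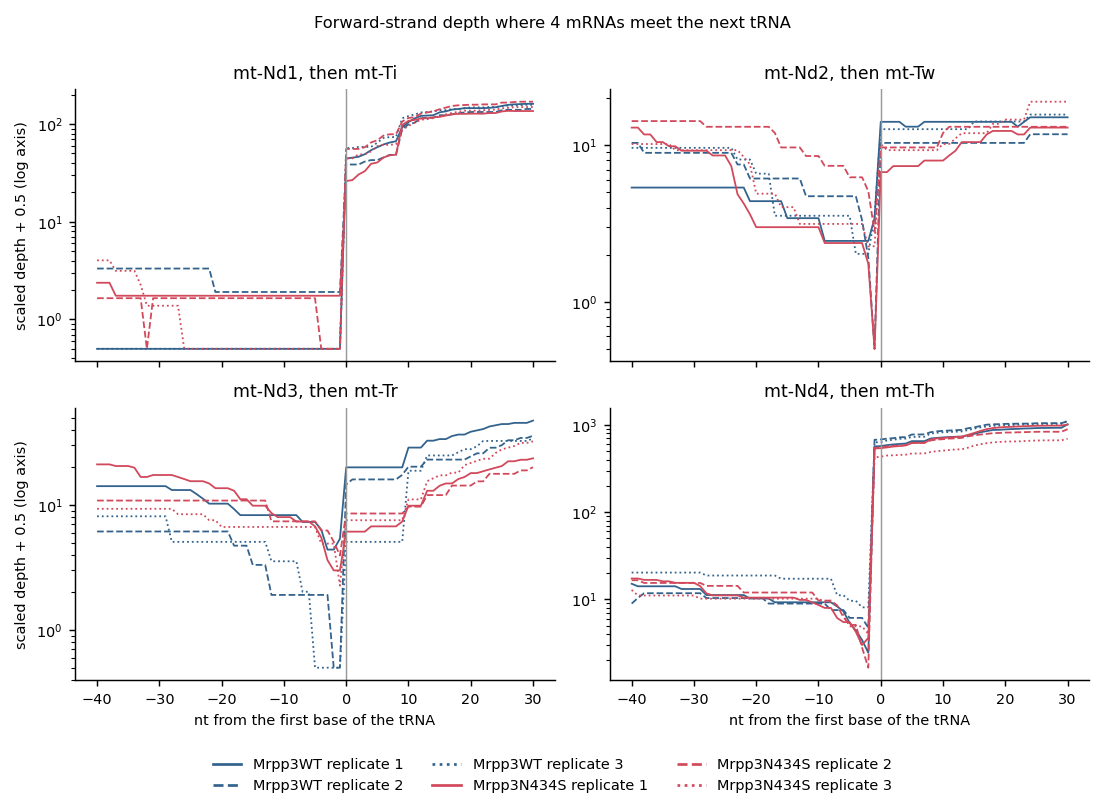
Scaled depth plus 0.5 (y axis, log scale) from 40 nt before to 30 nt after the first annotated base of the tRNA that follows mt-Nd1, mt-Nd2, mt-Nd3 and mt-Nd4 (x axis, nt, 0 at the first tRNA base), 1 line per library. Depth steps up at the tRNA in mt-Nd1 and mt-Nd4 in all 6 libraries, in mt-Nd4 at 1 base before the annotated start, while the steps at mt-Nd2 and mt-Nd3 rest on depths of 3 to 20 on the tRNA's first base.

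Between messages, mean depth per base was highest in the short mt-Nd4l and mt-Nd3, of which the first 100 nt are the largest share of the length (33.7% and 28.7%). Over all 6 libraries the scaled mean depth was 73.1 ± 7.20 in mt-Nd4l (SD, n = 6), 53.3 ± 8.17 in mt-Nd3, 22.7 ± 2.44 in mt-Nd2, 18.9 ± 4.14 in mt-Nd1, 18.7 ± 5.43 in mt-Nd4 and 17.0 ± 3.49 in mt-Nd5. The depth of mt-Nd4l was above that of mt-Nd3 in 6 of 6 libraries, although their ranges over libraries overlapped, and mt-Nd3 was above mt-Nd2 in 6 of 6 with no overlap. The ranges of mt-Nd2, mt-Nd1, mt-Nd4 and mt-Nd5 overlapped each with the next. Outside the first 100 nt the wild-type scaled depth was 11.5 to 14.9 in 5 of the messages and 30.1 ± 5.10 in mt-Nd4l (SD, n = 3).

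None of the 6 messages passed the test for a different mean depth between genotypes. The mutant mean was above the wild-type mean in 4 of them and slightly below it in the small subunit mRNAs. In mt-Nd4, which encodes an antiporter-like subunit, the depth was 14.6, 10.1 and 10.2 in wild-type against 45.1, 18.9 and 20.6 in mutant libraries, and scaled 14.7 ± 0.775 and 22.7 ± 5.04 (SD, n = 3). The scaled groups did not overlap, and the log2 difference was 0.66 (SE 0.26, edgeR adjusted p = 0.0736). In mt-Nd1 the depth was 13.4, 11.3 and 11.8 in wild-type against 39.97, 17.9 and 23.4 in mutant libraries, scaled 15.7 ± 2.47 and 22.0 ± 2.51 without overlap (log2 0.55, SE 0.26, edgeR adjusted p = 0.116).

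In mt-Nd5 the depth was 14.9, 8.91 and 10.4 in wild-type against 35.8, 16.5 and 20.4 in mutant libraries, scaled 14.3 ± 1.65 and 19.8 ± 2.32 without overlap (log2 0.50, SE 0.28, edgeR adjusted p = 0.197). In mt-Nd2 it was 22.2, 14.2 and 13.7 in wild-type against 35.5, 22.7 and 28.5 in mutant libraries, scaled 20.8 ± 0.767 and 24.5 ± 2.07 without overlap (log2 0.24, SE 0.27, edgeR adjusted p = 0.530). The small subunit mRNAs overlapped between genotypes. In mt-Nd3 the depth was 47.6, 47.7 and 35.0 in wild-type against 70.4, 47.8 and 61.0 in mutant libraries, scaled 55.6 ± 10.7 and 50.9 ± 6.04 (log2 -0.14, SE 0.24, edgeR adjusted p = 0.711). In mt-Nd4l it was 70.6, 50.7 and 55.8 in wild-type against 114, 67.7 and 73.4 in mutant libraries, scaled 75.0 ± 8.69 and 71.2 ± 6.55 (log2 -0.08, SE 0.25, edgeR adjusted p = 0.876).

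**Figure D3:**
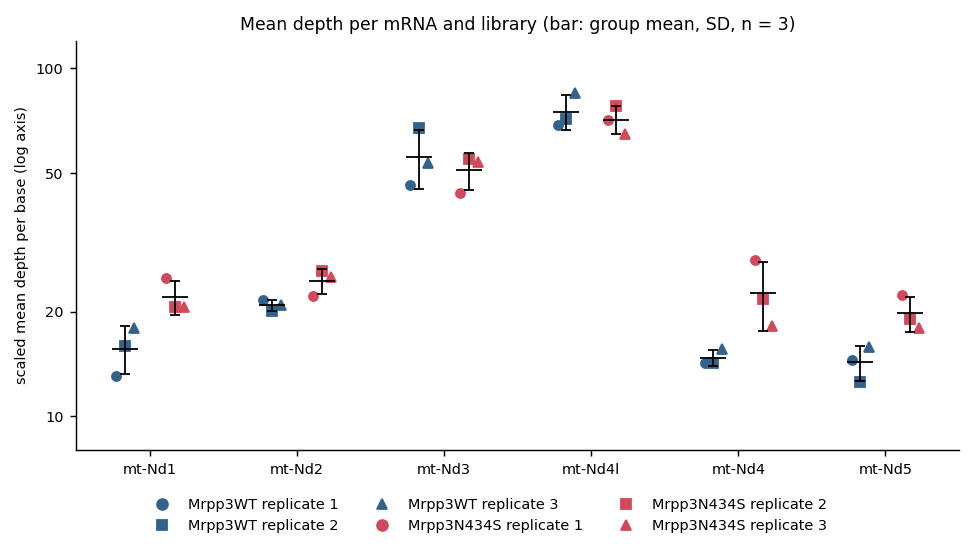
Scaled mean depth per base of each mRNA (y axis, log scale), 1 point per library, with the mean and SD of each genotype (n = 3). The points of the genotypes do not overlap in mt-Nd1, mt-Nd2, mt-Nd4 and mt-Nd5 and overlap in mt-Nd3 and mt-Nd4l. None of the 6 passed the test, and separation was not counted over all 34 genes tested.

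By edgeR's quasi-likelihood test, 0 of the 6 messages passed an adjusted p of 0.05 and 2 had an unadjusted p under 0.05, and DESeq2 gave 0 and 0. Of all 34 mitochondrial genes tested 2 passed, which is 5.88%. The median log2 difference was 0.37 over the 6 messages and -0.03 over all 34 genes. The 6 other heavy-strand mRNAs ranged from 0.02 to 0.78 with 0 called, and mt-Nd6 had 0.17. After scaling, the genotypes did not overlap in mt-Co1 and mt-Atp6 and overlapped in mt-Nd6, mt-Co2, mt-Atp8, mt-Co3 and mt-Cytb. Overlap was not counted over all 34 genes, so separation is not shown to be particular to the 6 messages. The direction depended on the scale: against the summed rRNA the median of all genes moved to -0.65 and mt-Nd1, mt-Nd2 and mt-Nd5 turned to -0.08, -0.38 and -0.14, with mt-Nd3 (-0.73) and mt-Nd4l (-0.70) called lower. Against the summed tRNA the median of all genes was 0.38, all 6 messages were above 0, and mt-Nd1, mt-Nd2, mt-Nd4 and mt-Nd5 were called higher (log2 0.96, 0.66, 1.08 and 0.92). Of all 34 genes, 14 were called on the rRNA scale and 12 on the tRNA scale, in either direction. Without mutant replicate 1 the log2 difference of mt-Nd4 was 0.46 (edgeR adjusted p = 0.290), and without mutant replicate 3 it was 0.80 and passed (edgeR adjusted p = 0.0268). Of all 34 genes, 6 passed without mutant replicate 1 and 11 without mutant replicate 3.

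As a share, the 6 messages took 31.6%, 31.0% and 33.6% of all protein-coding depth in wild-type against 25.2%, 30.3% and 33.6% in mutant libraries. The difference of -2.34 points was within the spread of the libraries (exact two-sided permutation p = 0.5, where 3 against 3 libraries cannot go below 0.1). The low value was that of mutant replicate 1, without which the difference was -0.07 points. Of all mitochondrial depth the messages took 2.78%, 2.52% and 2.77% in wild-type against 2.39%, 2.45% and 2.71% in mutant libraries (exact two-sided permutation p = 0.2).

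The 5′ block and the body of each message were then compared apart, a split at 100 nt that was chosen after the data had been seen. In mt-Nd1, mt-Nd2, mt-Nd3 and mt-Nd4l the log2 difference was below 0 in the first 100 nt and above 0 in the rest. In the rest of the message the scaled mean was above the wild type in 6 of 6, with a median log2 difference of 0.52 and a range from 0.27 in mt-Nd4l to 0.76 in mt-Nd1. The rest of the 7 other protein-coding genes was above the wild type in 7 of 7 as well, with a median of 0.60 and 2 called. Without mutant replicate 1 the range in the 6 messages was 0.10 (mt-Nd4l) to 0.58 (mt-Nd1). In the first 100 nt 2 of 6 were above 0, and the median was -0.03. Of these 12 stretches 1 was called by edgeR, against 9 of the 47 stretches and genes tested together (19.1%), whose median was 0.09.

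The called stretch was the first 100 nt of mt-Nd4, the message without a tRNA before it. Its depth was 25.8, 20.2 and 13.9 in wild-type against 96.6, 46.2 and 48.9 in mutant libraries, scaled 24.9 ± 3.66 and 52.2 ± 8.63 (SD, n = 3). The mutant libraries were all higher, 2.09-fold (log2 1.07, SE 0.15, edgeR adjusted p = 0.00393). The call was lost without mutant replicate 2 (log2 1.10, edgeR adjusted p = 0.0848) and against the rRNA scale (log2 0.43, edgeR adjusted p = 0.0884). It held in DESeq2 (log2 0.91, adjusted p = 0.0317).

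Beside a tRNA the first 100 nt overlapped between genotypes in all 5 messages. In mt-Nd1 they had 41.2, 36.6 and 37.6 in wild-type against 65.4, 45.9 and 57.7 in mutant libraries (log2 -0.01, SE 0.26), while the rest had 10.2, 8.38 and 8.80 against 37.0, 14.6 and 19.4 and did not overlap after scaling (log2 0.76, SE 0.24, edgeR adjusted p = 0.0551). In mt-Nd2 the first 100 nt differed by -0.06 (SE 0.31) and the rest by 0.39 (SE 0.30), in mt-Nd3 by -0.23 (SE 0.31) and 0.47 (SE 0.25), in mt-Nd4l by -0.18 (SE 0.21) and 0.27 (SE 0.18), and in mt-Nd5 by 0.18 (SE 0.32) and 0.60 (SE 0.27), none past the threshold. The rest of mt-Nd4 differed by 0.57 (SE 0.24, edgeR adjusted p = 0.126). On the rRNA scale the rest of mt-Nd2, mt-Nd3, mt-Nd4l, mt-Nd4 and mt-Nd5 turned below 0, and on the scale of library totals the rest of mt-Nd2 and mt-Nd4l did. Without mutant replicate 1 the first 100 nt of mt-Nd1 and mt-Nd2 turned to 0.08 and 0.11.

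**Figure D4:**
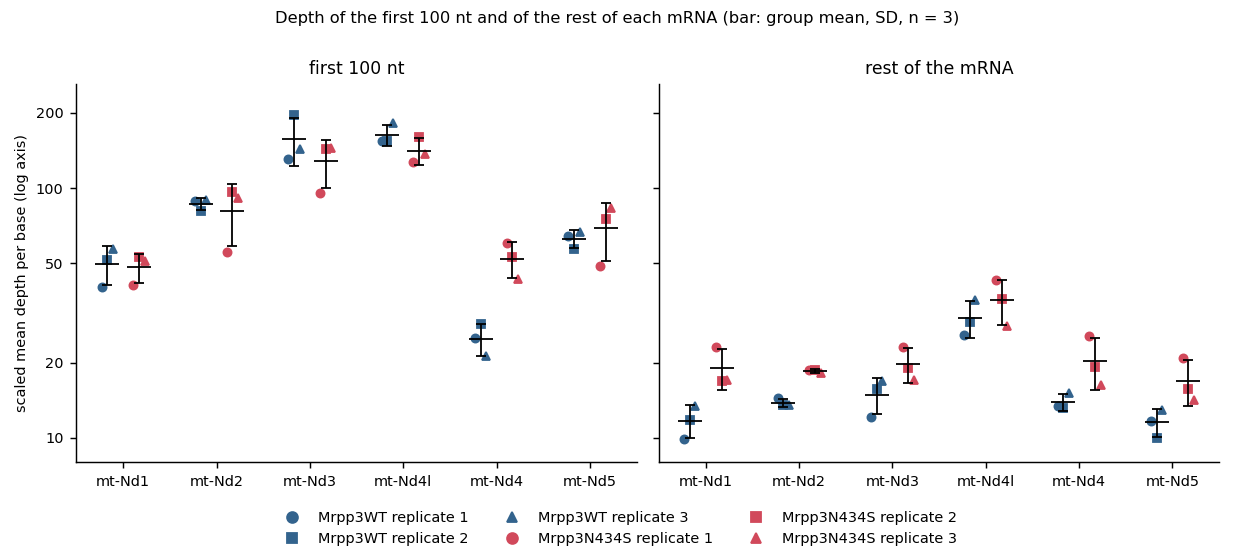
Scaled mean depth per base (y axis, log scale) of the first 100 nt (left) and of the rest (right) of each mRNA, 1 point per library, with the mean and SD of each genotype (n = 3). In the first 100 nt the genotypes separate in mt-Nd4, while in the rest they separate in every message but mt-Nd4l. The rest of 0 of the 6 messages passed the test. In the 7 other protein-coding genes, not drawn, the rest was higher in the mutant in 7 of 7. Separation was not counted over the 47 stretches and genes tested together.

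The ratio of the first 100 nt to the rest does not depend on the scale. In mt-Nd1 it was 4.08, 4.39 and 4.298 in wild-type against 1.77, 3.15 and 2.99 in mutant libraries, without overlap (log2 -0.80, SE 0.33, edgeR adjusted p = 0.0811). In mt-Nd3 it was 10.8, 12.5 and 8.48 against 4.14, 7.57 and 8.51 (log2 -0.79, SE 0.36, edgeR adjusted p = 0.0825), where mutant replicate 3 reached the wild type. In mt-Nd2 it was 6.18, 5.996 and 6.62 against 2.96, 5.19 and 5.02, in mt-Nd4l 5.99, 5.35 and 5.10 against 2.96, 4.48 and 4.86, and in mt-Nd5 5.50, 5.69 and 5.16 against 2.35, 4.77 and 5.85. The lowest ratio of all 5 was in mutant replicate 1. In mt-Nd4 the ratio ran the other way, with 1.88, 2.17 and 1.40 against 2.35, 2.76 and 2.66 (log2 0.50, SE 0.39, edgeR adjusted p = 0.275).

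No message passed the test of this ratio (0 of 6 by edgeR, 2 at an unadjusted p under 0.05, DESeq2 0 and 0), and 1 of the 15 protein-coding and rRNA genes did (6.67%), whose median log2 difference was -0.56 beside -0.54 in the 6 messages. Without mutant replicate 3, 3 messages passed: mt-Nd1 (log2 -0.96, edgeR adjusted p = 0.0266), mt-Nd3 (-1.02, 0.0256) and mt-Nd5 (-0.82, 0.0490). Without mutant replicate 1 their differences were -0.48, -0.42 and -0.07. Averaged over the libraries, the ratio was 2.20 to 8.67 in the 6 messages (median 4.84) and 0.189 to 7.16 in the 7 other protein-coding genes (median 1.30). Neither separation of the genotypes nor the calls with a library left out were counted over all 15 genes.

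When each message was cut into 3 equal parts in place of the first 100 nt and the rest, the 5′ part was the deeper one on average in all 6. In mt-Nd3 the 5′ part had 123, 130 and 87.6 in wild-type against 146, 117 and 155 in mutant libraries, and the 3′ part 7.33, 2.74 and 2.53 against 19.99, 4.95 and 6.23. In mt-Nd5 the 5′ part had 28.1, 15.2 and 18.8 against 65.5, 31.1 and 39.1 and the 3′ part 6.49, 4.64 and 5.32 against 16.7, 6.39 and 9.96. These 3′ parts were too shallow for the test. Of the 4 messages tested, mt-Nd4l had a ratio of 7.05 ± 0.736 in wild-type against 4.94 ± 1.31 in mutant libraries (SD, n = 3; log2 -0.60, SE 0.26, edgeR adjusted p = 0.104). The ratio in mt-Nd1 was 1.82 ± 0.279 against 1.14 ± 0.239 (log2 -0.69, SE 0.36, edgeR adjusted p = 0.161), and in mt-Nd2 2.42 ± 0.252 against 1.76 ± 0.221 (log2 -0.45, SE 0.33). In these 3 the groups did not overlap. Nor did they overlap in mt-Atp8 (5.28 against 2.80) and mt-Rnr2 (2.26 against 1.52), where the ratio was also lower in the mutant. They overlapped in mt-Co1, mt-Co2, mt-Atp6, mt-Co3, mt-Cytb and mt-Rnr1. In mutant replicate 1 the 5′ part of mt-Nd1 was the shallower, with a ratio of 0.873. In mt-Nd4 the ratio was 1.27 ± 0.365 and 1.32 ± 0.236 (log2 0.09, SE 0.38). By edgeR 0 of the 4 passed, 1 had an unadjusted p under 0.05, DESeq2 gave 0 and 0, and 1 of 12 genes passed (8.33%). Without mutant replicate 1 the differences were -0.44 in mt-Nd1, -0.37 in mt-Nd2 and -0.31 in mt-Nd4l, and none passed.

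The outermost 20 nt of each message were taken without bases shared with a tRNA. At the 5′ end the ratio of these 20 nt to the rest was 4.17, 4.05 and 4.08 in wild-type against 2.66, 3.26 and 3.50 in mutant libraries in mt-Nd3, 5.17, 5.09 and 5.10 against 2.80, 4.41 and 4.22 in mt-Nd2, and 2.27, 2.24 and 2.67 against 0.866, 1.94 and 1.41 in mt-Nd1. The genotypes did not overlap in these 3, with log2 differences of -0.38 (SE 0.18, edgeR adjusted p = 0.124), -0.44 (SE 0.26, 0.184) and -0.89 (SE 0.33, 0.0787). The ratio in mt-Nd4l was 2.73 ± 0.108 against 2.36 ± 0.290, also without overlap (log2 -0.23), in mt-Nd5 5.10 ± 0.322 against 3.93 ± 1.54 (log2 -0.49) and in mt-Nd4 0.871 ± 0.122 against 1.09 ± 0.315 (log2 0.26). The lowest ratio was that of mutant replicate 1 in all of these but mt-Nd4, and without it the differences were -0.26 in mt-Nd3, -0.23 in mt-Nd2, -0.53 in mt-Nd1, -0.12 in mt-Nd4l and -0.07 in mt-Nd5. Separation was not counted over all 19 ends tested, so it is not shown to be particular to these messages.

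At the 3′ end the ratio was below 1 in every message and library, from 0 in mt-Nd1 to 0.952 in wild-type replicate 3 of mt-Nd4. It was 0.128 ± 0.0125 in wild-type against 0.207 ± 0.0281 in mutant libraries in mt-Nd4l, where the mutant libraries were all higher (SD, n = 3; log2 0.72, SE 0.32, edgeR adjusted p = 0.124) and where the last bases are also the first of mt-Nd4. The other 3′ ends had a mean depth of 0.633 in mt-Nd1, 3.43 in mt-Nd5, 3.66 in mt-Nd2, 6.49 in mt-Nd3 and 8.82 in mt-Nd4, too low for the test. In mt-Nd4 the ratio went the other way, with 0.540, 0.545 and 0.952 in wild-type against 0.273, 0.412 and 0.450 in mutant libraries, without overlap and not tested. Of the 7 ends tested 0 passed by edgeR, 2 had an unadjusted p under 0.05, and DESeq2 gave 0 and 0; of all 19 ends tested 0% passed. With the replicate number as a block, 1 of the 7 passed, the 5′ end of mt-Nd1 (log2 -0.88, edgeR adjusted p = 0.0364). The calls over all 19 ends were not counted with the block.

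Peak by peak, 1 of the 9 peaks in the 6 messages was called, and 2 of all 17 (11.8%). It was the peak of mt-Nd4 near its start (bases 46 to 115), with a mean depth of 35.9, 24.6 and 18.0 in wild-type against 128, 62.9 and 58.2 in mutant libraries, scaled 32.3 ± 4.3003 and 67.8 ± 14.8 (SD, n = 3). Every mutant library was above every wild-type one (2.07-fold, log2 1.05, SE 0.33, edgeR adjusted p = 0.0166). Leaving out wild-type replicate 1, 2 or 3 or mutant replicate 2 raised the edgeR adjusted p to 0.0900, 0.0849, 0.203 and 0.249, with log2 differences from 0.89 to 1.11. The peak also lost its call in DESeq2 (log2 0.72, adjusted p = 0.0848), which used its own size factors and where the median of all peaks moved by -0.33. It lost its call too when scaled to totals, to protein-coding genes or to rRNA (log2 0.63, 0.61 and 0.41).

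The other peak of mt-Nd4 (bases 1004 to 1099) had 45.6, 23.4 and 27.6 in wild-type against 125, 57.0 and 42.8 in mutant libraries, and overlapped after scaling (log2 0.60, SE 0.32, edgeR adjusted p = 0.226). In mt-Nd5, the peak over bases 230 to 304 had 37.4, 18.7 and 26.7 against 115, 35.0 and 43.6 and also overlapped after scaling (log2 0.56, SE 0.33, edgeR adjusted p = 0.242). The peak over bases 420 to 503 had 34.3, 19.4 and 24.1 against 104, 42.9 and 43.4 and did not overlap (log2 0.67, SE 0.34, edgeR adjusted p = 0.216). The 5′ blocks differed by -0.02 (mt-Nd1), -0.12 (mt-Nd2), -0.31 (mt-Nd3), -0.21 (mt-Nd4l) and 0.12 (mt-Nd5), with SE from 0.26 to 0.32 and edgeR adjusted p from 0.423 to 0.954. On other scales some were called lower in the mutant: that of mt-Nd3 against library totals (log2 -0.67, edgeR adjusted p = 0.0413), and those of mt-Nd2, mt-Nd3 and mt-Nd4l against rRNA (log2 -0.71, -0.87 and -0.81, edgeR adjusted p = 0.0320, 0.00672 and 0.00706). Of all 17 peaks, 3 were called against library totals and 5 against rRNA. Without mutant replicate 3 the peaks of mt-Nd4 and the inner pair of mt-Nd5 passed (4 of 9), where 8 of all 17 peaks passed. With the replicate number as a block the peak over bases 420 to 503 of mt-Nd5 joined that of mt-Nd4 (edgeR adjusted p = 0.0285). There 4 of all 17 peaks passed.

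Along the messages in windows of 50 nt, 76 of the 112 windows inside them were deep enough to test, and 12 were called, all higher in the mutant. Of all 293 windows tested on the chromosome 31.7% were called higher and 5.12% lower, among them 42 of 49 in rRNA and 35 of 97 in the other protein-coding genes, all higher. The median log2 difference was 0.55 in the windows of the messages and 0.56 in all windows. The called windows were 6 in mt-Nd1, 4 in mt-Nd4, 2 in mt-Nd5 and 0 in mt-Nd2, mt-Nd3 and mt-Nd4l.

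In mt-Nd1 the called windows lay between bases 351 and 900. The window with the largest difference, bases 851 to 900, had 7.26, 3.64 and 6.64 in wild-type against 29.8, 17.8 and 19.96 in mutant libraries (log2 1.31, SE 0.40, edgeR adjusted p = 0.00517), without overlap. Those over bases 401 to 450, 601 to 650, 551 to 600 and 801 to 850 had log2 differences of 1.27, 1.16, 1.04 and 1.01. The first window of mt-Nd1 had -0.22, and its deepest window (bases 51 to 100) 0.08. In mt-Nd5 the windows over bases 510 to 559 and 560 to 609 were higher by 1.16 and 1.07 on the log2 scale, the first with 26.8, 9.00 and 12.7 in wild-type against 89.9, 41.2 and 35.0 in mutant libraries (SE 0.34, edgeR adjusted p = 0.00364).

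In mt-Nd4 the windows over bases 35 to 84 and 85 to 134, which hold the called peak, were higher by 1.06 and 1.07 (edgeR adjusted p = 0.00534 in both), and that over bases 935 to 984 by 1.09. The deepest windows of the other messages did not pass: the log2 difference was -0.09 in mt-Nd2 (bases 38 to 87), -0.21 in mt-Nd3 (bases 43 to 92), -0.18 in mt-Nd4l (bases 25 to 74), 0.58 in mt-Nd4 (bases 1035 to 1084) and 0.08 in mt-Nd5 (bases 10 to 59). Windows share reads with their neighbours, so adjacent calls are not separate pieces of evidence. The number of calls depended on the scale and on single libraries. Scaled to totals 1 window was called higher and 1 lower, to protein-coding genes 2 and 1, to rRNA 0 and 5, to tRNA 52 and 0, and DESeq2 with its own size factors called 0 higher and 1 lower. Of all 293 windows, 81, 78, 75, 199 and 75 were called in these settings, in either direction. Without wild-type replicate 1, 3 windows were called, without mutant replicate 3, 27, and without mutant replicate 1, 8 of the 62 that could then be tested. On the whole chromosome 53 of 300, 171 of 290 and 84 of 271 tested windows were called in the same order, in either direction.

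**Figure D5:**
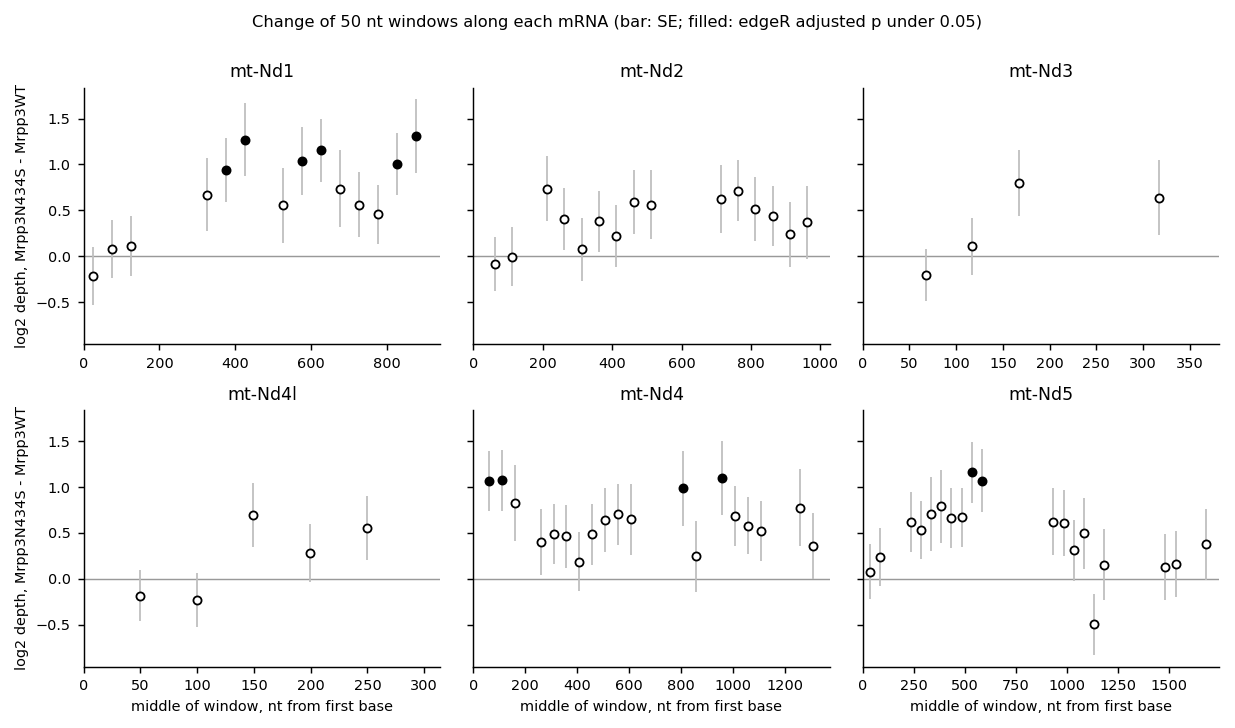
Log2 difference in depth between mutant and wild type (y axis, bars are SE) of each tested 50 nt window against the middle of the window (x axis, nt from the first base of the mRNA); filled points passed an edgeR adjusted p of 0.05. The windows next to the start of mt-Nd1, mt-Nd2, mt-Nd3, mt-Nd4l and mt-Nd5 lie near 0 and most later ones above it, whereas in mt-Nd4 the windows nearest the start are among the highest.

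In letters, the first 100 nt of the messages were poor in G, as was the rest. G made up 7% to 11% of the first 100 nt in 5 of the messages and 0% in mt-Nd5, where no G was present, against 7.68% to 12.2% in the rest of the 6. The share of G and C was 30% (mt-Nd5) to 43% (mt-Nd4l) in the first 100 nt and 33.5% to 40.1% in the rest. With 6 messages this is a description, and the share of G and C at the start was higher than in the rest in mt-Nd1, mt-Nd2 and mt-Nd4l and lower in mt-Nd3, mt-Nd4 and mt-Nd5.

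The reads differed from the reference at 1 well covered base. Of the 5835 positions of the 6 messages, 310 were covered at least 50 times in each library, and at 1 of them at least 5% of the bases differed from the reference on average. This is base 3 of mt-Nd3 (chrM:9461), the last letter of its first codon, where the reads had T3C, counted from the first base of the message. The bases that differed from the reference were 163 of 164, 159 of 159 and 117 of 118 in wild-type against 162 of 162, 134 of 134 and 180 of 180 in mutant libraries. All 6 libraries carried it alike (lowest bound of the exact 95% binomial intervals 95.4%, counting error only), and edgeR's test between genotypes did not pass (0 of 1 by edgeR, 0 at an unadjusted p under 0.05, DESeq2 0 and 0, with 0% of the 7 sites tested on the chromosome called). The first codon read there is then the one with which the reference of mt-Nd5 begins. At the other well covered positions the mean mismatch reached at most 1.41%, with a median of 0.234%.

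Over the 6 libraries, the genes with the most similar log2 scaled depth were mt-Atp6 (Pearson r = 0.98) and mt-Rnr1 (0.97) for mt-Nd4, mt-Nd4 (0.95) and mt-Rnr1 (0.88) for mt-Nd5, and mt-Rnr2 (0.94) and mt-Rnr1 (0.90) for mt-Nd1. For mt-Nd2 they were mt-Atp8 and mt-Nd5 (both 0.60), for mt-Nd3 mt-Ts2 (0.52) and mt-Atp8 (0.41), and for mt-Nd4l mt-Tn (0.66) and mt-Th (0.59). These values describe 6 libraries that share their depth, scaling and genotype between genes, and no test was made of them.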

How the data were processed

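The authors deposited unscaled counts of each base by strand for every listed position of the mitochondrial chromosome, 1 file per library, per the file headers. Libraries followed the Illumina TruSeq small RNA protocol, per the labels' protocols, and Trim Galore, cutadapt, FastQC, STAR and the build GRCm38.p6 are named in the submitters' processing notes. Not given in the sources used here are the read length and the tool that counted bases. Positions not listed were taken as 0. No depth of both strands together exceeded 8000, reached only in rRNA, so a limit is inferred there. It lies far above the depths of the 6 mRNAs, but rRNA depth enters the scales of summed rRNA and library totals. At the summit of the mt-Rnr2 peak the depth was 7267, 7756 and 7348 in wild-type against 7942, 7933 and 7945 in mutant libraries. How far the limit moved values on those 2 scales was not tested. The authors' table of position 9 counts was not used, since its 16 per-sample columns match no label and it covers tRNAs only.

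Genes were those of GENCODE on GRCm38, and the 6 transcripts were identical to the reference bases of the files. Rounded mean depth was tested with edgeR 4.0.16 (quasi-likelihood, R 4.3.3), with TMM factors over the mitochondrial genes and a mean of at least 10. Ratios within a gene were fitted with library effects plus a genotype term. Standard errors were taken from the log2 difference and its p. Adjusted p-values are Benjamini-Hochberg values over all features of a test, with a threshold of 0.05. Mean depth counts a read once per base covered, so neighbouring stretches share reads. The fits were also run on simulated data with known changes. There each feature was drawn on its own, with a single common spread and, for depth, the same scaling factors. Those simulations therefore do not test the effect of shared reads or of the choice of scale. Libraries differed by more than counting noise (chi-square per degree of freedom of 3.15 or more over genes for each pair), and the labels do not tie a library to an animal, so the p-values measure the spread between these libraries.

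The members, lists and tests were chosen with earlier results of these data known. Named by rule were the 6 mRNAs, their peaks (up to 3 each), up to 10 called windows, the deepest window of each, all gene ends, mismatch sites of at least 5% and the 2 most similar genes. Alternatives were other scalings, DESeq2 1.42.0, other window, end and peak settings, no filter, median or maximum depth, positions above 6000 left out, a replicate block and leaving out each library.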

Additional observations from a re-analysis of the deposited data

Results flagged for a closer look

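Reverse-strand reads opposite the messages lie outside the comparisons above. They passed the limit that a count of 0 allows (3 counts) at the highest base in every library opposite 5 of the 6 messages. The mean reverse-strand depth over the 6 libraries was 1.41 opposite mt-Nd1, 3.03 opposite mt-Nd3, 3.02 opposite mt-Nd4l and 1.57 opposite mt-Nd4. Opposite mt-Nd5 it was 6.93, which is 38.9% of the forward depth there, against 2.69% to 8.02% for the other 5 messages. In the order of replicates, the wild-type libraries had 5.21, 4.38 and 3.84 there against 15.6, 6.13 and 6.47 for the mutant ones, with a highest base of 39 to 92. Opposite mt-Nd2 the highest base was 2 to 10 and the mean depth 0.655. These depths were not scaled and not tested between genotypes.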

How the results depend on the processing

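The depth of the messages (means of 8.91 to 114 per base) limited the tests: 3′ ends before a tRNA and the 3′ parts of mt-Nd3 and mt-Nd5 could not be tested, and 3 libraries per genotype set the spread. Over all alternatives 571 values of single genes, stretches, peaks, windows, ends and sites kept their direction and their side of the threshold, 66 changed sign, 59 lost their call and 35 gained one. All values below are log2 differences, mutant minus wild type, or counts of calls in the 6 messages. For each other scale the shift of the median of all genes is given beside the values that turned sign. The cause of a turn was not tested. The alternatives for the split at 100 nt were chosen after seeing the data.

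Scaled to library totals, which moved the median of all genes by -0.40, mt-Nd2 had -0.17, 2 windows were called, the deepest windows of mt-Nd1 and mt-Nd5 had -0.30 and -0.30, the first peak of mt-Nd5 -0.25, the first 100 nt of mt-Nd5 -0.25, and the rest of mt-Nd2 and mt-Nd4l -0.026 and -0.14. Scaled to the protein-coding genes (shift -0.41), these were -0.19, 3 windows, -0.32 and -0.30, -0.24, -0.24, and -0.049 and -0.18, and 0 peaks were called. Of all 293 windows, 81 were called on the scale of library totals and 78 on that of protein-coding genes. Scaled to rRNA (shift -0.62), 2 genes, 5 windows and 3 peaks were called, all lower in the mutant. Over the whole chromosome 14 of 34 genes, 75 of 293 windows and 5 of 17 peaks were called on that scale, in either direction. There mt-Nd1, mt-Nd2 and mt-Nd5 had -0.085, -0.38 and -0.14, the deepest windows of mt-Nd1, mt-Nd4 and mt-Nd5 -0.51, -0.083 and -0.52, the 3′ peak of mt-Nd4 -0.067, the peaks of mt-Nd5 over bases 1 to 97 and 230 to 304 -0.47 and -0.093, the first 100 nt of mt-Nd5 -0.46, and the rest of mt-Nd2, mt-Nd3, mt-Nd4l, mt-Nd4 and mt-Nd5 -0.24, -0.16, -0.36, -0.068 and -0.039.

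Scaled to tRNA (shift 0.41), 4 genes, 52 windows, 4 peaks and 7 of the stretches split at 100 nt were called. Over the whole chromosome 12 of 34 genes, 199 of 293 windows, 9 of 17 peaks and 20 of 47 stretches and genes were called on that scale. There mt-Nd3 and mt-Nd4l had 0.26 and 0.32, the deepest windows of mt-Nd2, mt-Nd3 and mt-Nd4l 0.32, 0.18 and 0.21, the 5′ peaks of mt-Nd1, mt-Nd2, mt-Nd3 and mt-Nd4l 0.38, 0.29, 0.083 and 0.19, and their first 100 nt 0.35, 0.29, 0.091 and 0.18. DESeq2 with its own size factors called 1 window (75 of all 293) and 0 peaks (0 of all 17). There the median moved by -0.02 over all genes, -0.52 over all windows, -0.33 over all peaks and -0.15 over the stretches and genes. The deepest windows of mt-Nd1 and mt-Nd5 had -0.36 and -0.33, the first peak of mt-Nd5 -0.11 and its first 100 nt -0.0064. With the highest base in place of the mean the peak of mt-Nd1 had 0.10. With the maximum depth 1 gene was called (4 of all 36), and without a filter 1 gene (6 of all 37), where mt-Nd4l had 0.027. With the median depth mt-Nd3 and mt-Nd4l had 0.67 and 0.27. With windows of 100 nt 6 were called (53 of all 152), and peaks of at least 5 times the gene median gave 0 calls (0 of all 10).

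Same-numbered libraries of the genotypes deviated together no more than others (correlations -0.03, -0.25 and 0.23 over 34 genes, against -0.31 to 0.33 for unlike numbers). The labels do not say what a shared number means. Whether same-numbered libraries shared a batch cannot be told from 3 libraries per genotype. With the replicate block 0 genes, 11 windows, 2 peaks and 1 gene end were called, where 0 of all 34 genes, 97 of all 293 windows and 4 of all 17 peaks were. Leaving out 1 library at a time gave 0 to 1 genes, 3 to 27 windows, 0 to 4 peaks, 0 to 1 stretches split at 100 nt and 0 to 3 ratios of the first 100 nt to the rest. Over the whole chromosome it gave 0 to 11 genes, 53 to 171 windows, 0 to 8 peaks and 0 to 12 stretches and genes. The ratio of the 5′ to the 3′ part of mt-Nd4 ran from -0.053 to 0.28. The first 100 nt ran from -0.22 to 0.11 in mt-Nd1, -0.34 to 0.11 in mt-Nd2 and -0.17 to 0.34 in mt-Nd5, their peaks from -0.16 to 0.091, -0.30 to 0.10 and -0.054 to 0.34, and their deepest windows from -0.039 to 0.17, -0.27 to 0.13 and -0.077 to 0.29.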
